A study of Macaca fascicularis with 44 samples.

Results

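Cytotrophoblast (CTB) cells of cluster 14 are a group of 125 cells among 3682 of cultured embryos of the cynomolgus monkey, Macaca fascicularis. They were chosen by 2 columns of the authors' annotation, the class CTB and the cluster number 14 at clustering resolution 2. The working name of the group is SPDEF high, after its label genes SPDEF, TSPAN7, ATP6V1C2 and GABRA3. No cell of cluster 14 had another class, and the other 424 CTB cells lay in cluster 0 (286 cells) and cluster 12 (138 cells). The clusters were made from the genes described here, so levels in cluster 14 against other cells are a description and carry no test.

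Cytotrophoblast is the epithelial stem layer of the placenta. It renews itself, fuses into the syncytiotrophoblast (STB), which makes hormones and exchanges nutrients, and gives rise to the extravillous trophoblast (EVT), which invades the uterus. SPDEF is an ETS-family transcription factor known from secretory epithelia such as goblet cells of human and mouse, TSPAN7 is a tetraspanin of the cell membrane, ATP6V1C2 is a subunit of the proton pump V-ATPase, and GABRA3 is a subunit of the GABA-A receptor.

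The series holds RNA of single cells in 44 libraries from 9 wild type embryos. Oocytes were fertilised by sperm injection, blastocysts with a wide cavity were chosen and grown in vitro, and cells were dissociated with TrypLE after the extraembryonic tissue had been cut away, per the labels' protocols. Despite that dissection the authors' annotation gives 549 cells the class CTB. The groups used here are the E23 embryo (male, 6 libraries, 547 cells) and the E20 embryo (female, 6 libraries, 518 cells), with the embryos of E16 (E16-1 and E16-2), E18, E21, E22, E24 and E25 as further points. Each day after E16 is 1 embryo, so day and embryo cannot be told apart. Between E23 and E20, sex and the date code in a library's name cannot be told apart from embryo either. Over the whole series each sex has several embryos, and embryos of E21, E22, E24 and E25 share date codes. The code of the E23 libraries in the cell names differs from the one in their sample descriptions, and E23 is the single embryo with its value in the annotation's condition column.

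Cluster 14 was mostly the cytotrophoblast of 1 embryo. E23 held 112 of the 125 cells (89.6%), E20 held 11 (8.8%), and E18 and E25 held 1 cell each. Within E23, 112 of 122 CTB cells were in the cluster (91.8%, exact 95% binomial interval 85.4 to 96.0, counting error only), and they made up 20.5% of that embryo's cells. Within E20 the share was 11 of 165 (6.67%, 3.37 to 11.6), within E18 it was 1 of 48 (2.08%) and within E25 1 of 84 (1.19%).

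No CTB cell of E16-2 (26 cells), E21 (34), E22 (12) or E24 (58) was in the cluster. Taken as 3 counts over the number of cells, this allows shares of up to 11.5%, 8.82%, 25% and 5.17%. The upper ends of the exact 95% binomial intervals are 13.2%, 10.3%, 26.5% and 6.16%. Libraries 26 and 27, whose labels give conflicting days, hold 2 of the E21 cells and 27 of the E24 cells by the annotation. Without them the limits from 3 counts are 9.38% of 32 cells in E21 and 9.68% of 31 cells in E24. E16-1 had no CTB cell. The 6 E23 libraries, numbered 8 to 13, gave 21, 23, 19, 21, 5 and 23 cells, and the cluster held 71.4% to 100% of the CTB cells of each library. The E20 cells came from libraries 34, 35, 36 and 38, with 4, 1, 3 and 3 cells. The embryos thus differed far more than the libraries of 1 embryo did. Cluster 12 was as uneven, with 137 of its 138 cells in E20, whereas cluster 0 had cells in 8 embryos.

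**Figure D1:**
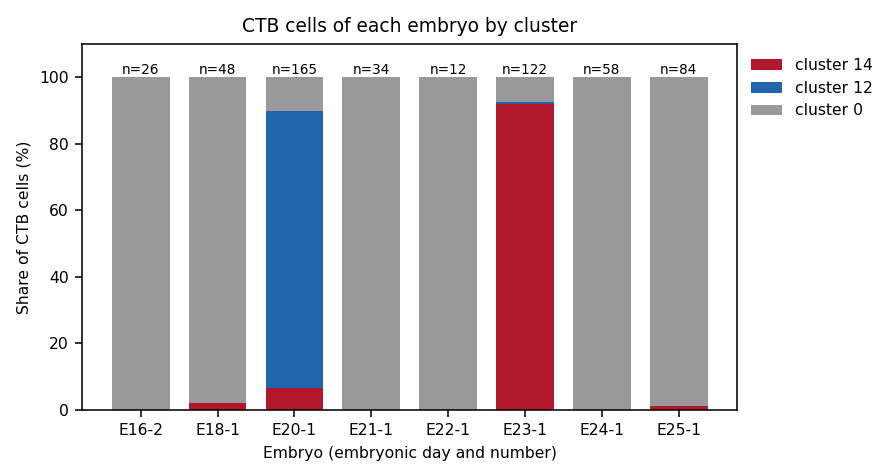
Share of the CTB cells (%, vertical axis) of each embryo (horizontal axis) in clusters 14, 12 and 0, with the number of CTB cells, libraries 26 and 27 included, above each bar. Cluster 14 takes 112 of the 122 CTB cells of E23 and 11 of the 165 of E20, where cluster 12 takes 137.

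Depth differed between the embryos. A cluster 14 cell of E23 had a median of 180091 counts over 5660.5 genes, against 61017 counts and 2483 genes in a cluster 14 cell of E20. The E20 cells sum to 690582 counts, so a count of 0 there allows up to 4.34 CPM (a count divided by the total and scaled to a common total, as for all levels here), and a gene can rest on 1 cell. The other CTB cells of E23 are also few, 10 cells with 1110928 counts and a floor of 2.70 CPM. Cluster 0 and cluster 12 had medians of 130675 and 274708.5 counts per cell. Mitochondrial transcripts were a median 11.3% of counts in cluster 14 of E23 and 5.21% in cluster 14 of E20, against 11.1% in cluster 0 and 7.79% in cluster 12. The part of depth and embryo in the differences below was not tested.

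The first label gene, SPDEF, was high in cluster 14 of both embryos. Its level was 213, 331, 250, 166, 166 and 204 CPM in libraries 8 to 13 of E23 and 293 CPM over the 11 cells of E20, where 9 cells had a count. The other CTB cells had 5.40 CPM in E23, from 6 counts, and 115 CPM in E20. All 6 E23 libraries lay above cluster 12 (119 CPM) and above cluster 0 of each of 8 embryos, which ran from 7.00 CPM in E23 to 105 CPM in E21. Over all cells SPDEF had 219 CPM in cluster 14 and 80.2 CPM in other CTB cells, a 2.71-fold level (1 CPM added to both sides, as in all folds here). The single cells of E18 and E25 had 115 and 212 CPM.

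TSPAN7 was high in the E23 cells and not in those of E20. Its level was 103, 145, 159, 168, 200 and 237 CPM in the E23 libraries, which did not overlap cluster 12 (64.0 CPM) or cluster 0 of any embryo (at most 36.2 CPM, in E23). In E20 it had 21.7 CPM in cluster 14, with a count in 3 cells, and 61.7 CPM in other CTB cells. Pooled over embryos this is 160 CPM in cluster 14 and 34.1 CPM in other CTB cells, a 4.59-fold level.

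ATP6V1C2, a subunit of the V1 part of the proton pump, was higher within both embryos. The E23 libraries had 73.4, 55.4, 58.5, 54.7, 63.2 and 73.9 CPM, above 14.4 CPM in the other CTB cells of that embryo, 27.8 CPM in cluster 12 and at most 11.4 CPM in cluster 0. In E20 it had 95.6 CPM, again with a count in 3 cells, against 26.7 CPM in other CTB cells. GABRA3 followed neither pattern. The E23 libraries had 15.6 to 58.5 CPM and overlapped cluster 12 at 27.9 CPM, no cluster 14 cell of E20 had a count, and the pooled level was 25.8 CPM in cluster 14 and 14.6 CPM in other CTB cells.

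**Figure D2:**
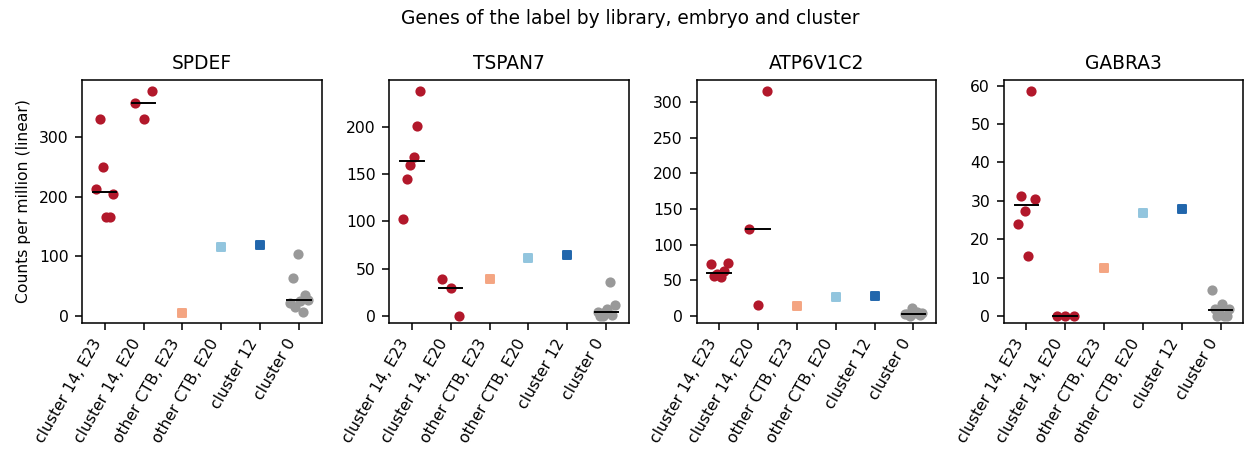
CPM (vertical axis) of the 4 label genes in cluster 14 by library of E23 and E20 (E20 libraries with at least 3 cells), in the other CTB cells of E23 and of E20, in cluster 12 and in cluster 0 by embryo; squares are pooled cells and black bars are medians. For SPDEF, TSPAN7 and ATP6V1C2 the 6 E23 points stand above cluster 12 and all cluster 0 points, and for GABRA3 they overlap cluster 12.

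Cell by cell the label genes were spread widely. In cluster 14 of E23 the quartiles of SPDEF were 62.9, 157 and 279 CPM, those of TSPAN7 59.0, 130 and 235 CPM, and those of ATP6V1C2 0, 30.7 and 91.2 CPM. After each cell was thinned to 20000 counts, SPDEF had a count in 80.7% of cluster 14 cells of E23 (109 cells left). The shares were 66.7% of cluster 14 cells of E20 (9 left), 52.9% of cluster 12 and 28.5% of cluster 0. In EVT the share was 8.88%, and in extraembryonic mesenchyme (EXMC) 2.71%. The median depth per cell was 180091 counts in cluster 14 of E23, 71638 in EVT and 107826 in EXMC. Unthinned, the shares were 91.1%, 81.8%, 68.8%, 43.7%, 17.8% and 10.5%. TSPAN7 gave thinned shares of 80.7%, 22.2%, 46.4%, 6.74%, 4.82% and 1.62% in the same order. GABRA3 was found in 26.6% of cluster 14 cells of E23 and 23.2% of cluster 12. By these shares SPDEF was not confined to cluster 14 and was common in cluster 12 as well.

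Cytotrophoblast markers were high in the cells, though not only in CTB cells. Summed over the 12 cytotrophoblast markers in the table, cluster 14 of E23 had 11507 CPM (10745 to 12595 over 6 libraries), and cluster 14 of E20 had 7108 CPM. The sums were 7681 CPM in the other CTB cells of E23, 6415 CPM in cluster 0 and 7339 CPM in cluster 12. STB cells had 7286 CPM and Non-neural ectoderm 5414 CPM, so the sum alone does not mark CTB cells. Over the 12 markers the median log2 fold of cluster 14 over other CTB cells was -0.18 pooled, -0.28 within E23 and -0.79 within E20. The largest part of the E23 sum was PAGE4, a cancer/testis antigen gene expressed in placenta. It had 7879 to 9912 CPM in the E23 libraries against 4385 CPM in the other CTB cells of E23 and 2193 CPM in cluster 12. Its quartiles over E23 cells were 6601, 8330 and 10298 CPM, so it was high in nearly the whole group. After thinning, PAGE4 also had a count in 92.1% of EVT cells and 72.6% of EXMC cells. PAGE4, TSPAN7 and GABRA3 are X-linked in human, and the E23 embryo is male while the E20 embryo is female. The embryos of E18 and E21 are male too, and a part of sex in these levels was not tested.

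Markers of the other lineages were low. The 10 STB markers summed to 1429 CPM in cluster 14 of E23 against 46955 CPM in STB cells, with CYP19A1, the aromatase, at 0. The 11 EVT markers summed to 877 CPM against 18582 CPM in EVT, and the 10 mesenchyme markers to 1318 CPM (279 to 1824 by library) against 39102 CPM in EXMC. Endoderm markers gave 75.5 CPM against 22545 CPM in Endoderm, with FOXA2 at 0, the 5 epiblast markers gave 6.00 CPM against 661 CPM in EPI, with NANOG, SOX2 and PRDM14 at 0, and blood markers gave 0.47 CPM with HBZ at 0. Amnion and surface ectoderm markers summed to 231 CPM (165 to 312 by library) against 1567 CPM in Non-neural ectoderm, and endothelial markers to 92.1 CPM. The amnion and surface ectoderm sum was higher still in EXMC (5223 CPM), Extraembryonic Mesoderm (4410 CPM) and EVT (2538 CPM). That list therefore does not mark Non-neural ectoderm alone. Mesenchyme and endoderm markers varied between the E23 libraries (5.06 to 217 CPM for endoderm), and their part in the genes below was not tested. No doublet caller was run.

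**Figure D3:**
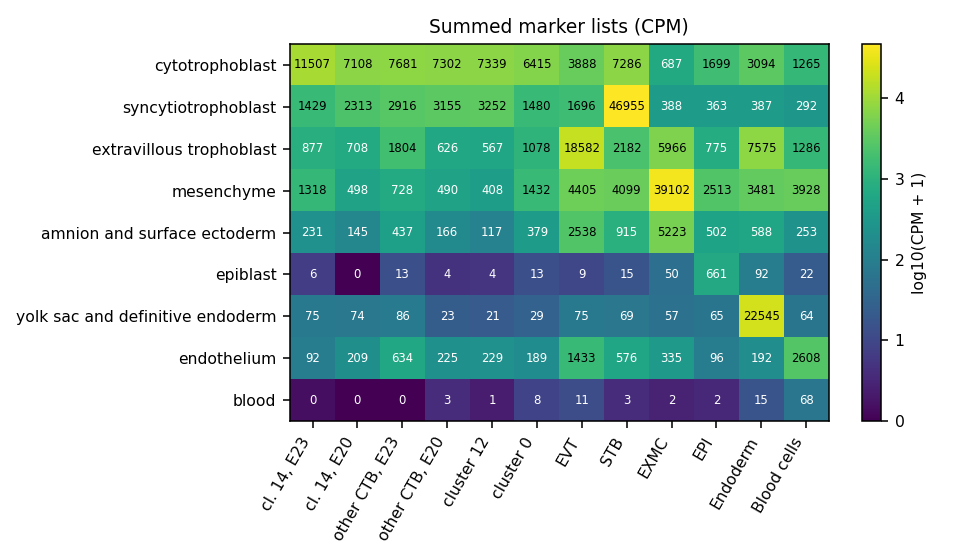
Summed CPM of each marker list (rows) in cluster 14 of E23 and E20, other CTB cells and the other classes (columns); each cell of the plot prints the sum and a lighter colour, on a log10 scale, means higher. Cluster 14 of E23 has 11507 CPM of cytotrophoblast markers and at most 1429 CPM of any list of another lineage.

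Across the transcriptome, genes that differed between cluster 14 and other CTB cells were counted within both embryos. Of 7603 genes with at least 10 CPM on the higher side, 171 (2.25%) were at least 2-fold higher in cluster 14 within E23 and again within E20, and 434 (5.71%) were at least 2-fold lower within both. Nothing is read from these shares, since the clusters were made from these genes. The E20 side is thin. The 171 genes had a count in a median of 3 of the 11 E20 cells, 92 of them had one in at least 3 cells, and 168 of the 434 lower genes had no count in E20. Pooled over all cells, 292 genes (3.84%) were at least 2-fold higher and 555 (7.3%) at least 2-fold lower, and 25 and 124 of these were also 2-fold in both embryos.

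The pooled contrast mostly sets E23 against other embryos. Of the 292 pooled higher genes, 126 were also 2-fold higher within E23 and 51 within E20, while 111 were at least 2-fold lower in cluster 14 within E20 and 99 had no count there. For that reason a further, stricter view was taken after the values had been seen. It counts genes for which the 6 E23 libraries all lay above, or all below, cluster 12 and cluster 0 of all 8 embryos. That held for 83 genes above (1.09% of 7603) and 86 below (1.13%), of which 12 and 19 were also 2-fold within both embryos. Without libraries 26 and 27 it held for 81 and 82 genes, of which 80 and 82 were among the same genes. Of the 83, 52 were 2-fold higher within E23.

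Among the named genes higher within both embryos, GGH and DPP4 each rested on 1 cell in E20. GGH, the lysosomal hydrolase that trims folate polyglutamates, had 59.2 to 138 CPM (median 89.1) in the E23 libraries and 39.6 CPM in the other CTB cells of E23. No E23 library overlapped cluster 12 (10.6 CPM) or cluster 0 (7.16 to 18.7 CPM), but the E20 value of 24.6 CPM, against 10.4 CPM in other E20 CTB cells, came from 1 cell. DPP4, a membrane protease that cleaves peptide hormones and chemokines, had 93.3 to 156 CPM against 5.40 CPM in the other CTB cells of E23 and at most 39.5 CPM in cluster 0. In E20 it had 88.3 CPM, from 1 cell, against 23.6 CPM in other CTB cells.

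Other genes had more support in E20. SH3BGRL2 had 80.4 to 180 CPM in the E23 libraries and 117 CPM in E20, over 4 cells, against 20.7 and 48.7 CPM in the other CTB cells of E23 and E20. VAMP8, a vesicle fusion (SNARE) protein of late endosomes and secretory granules, had 415 to 614 CPM in the E23 libraries and 808 CPM in E20, where all 11 cells had a count, against 210 and 367 CPM in other CTB cells. RPL26L1, a ribosomal protein paralog whose reads may be shared with RPL26, had 135 to 179 CPM in E23 and 143 CPM in E20 over 7 cells, against 73.8 and 57.9 CPM. These 3 genes also lay above cluster 12 and all of cluster 0 in each E23 library.

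The other genes named by the largest fold within both embryos rested on few counts or few E20 cells. SYNRG, an adaptor at clathrin-coated vesicles, had 25.2 CPM in cluster 14 of E23 and 3.60 CPM in other E23 CTB cells, and RTKN2 had 41.8 and 12.6 CPM. KIF21A, a kinesin, had 39 CPM in cluster 14 of E23 and 18.9 CPM in other E23 CTB cells, and STB cells had 341 CPM. ALDH3B1, THY1, DDX43 and NAAA each had a count in 1 cell of E20. TTR, a carrier of thyroid hormone and retinol made by yolk sac endoderm, ran from 2.55 to 116 CPM over the E23 libraries against 8401 CPM in Endoderm, and so differed more between libraries than between the kinds of CTB cell.

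Set against all classes of the series, 38 of 7020 genes (0.541%) were at least 2-fold higher in cluster 14 than in the highest other class. Besides TSPAN7 and ATP6V1C2 the named ones were GSDME, NFE2L3, ACSS1, LUZP4, CA6 and TLR3. GSDME, a pore-forming gasdermin, had 64.8 to 169 CPM in the E23 libraries against 2.70 CPM in other E23 CTB cells, 41.4 CPM in cluster 12 and at most 15.2 CPM in cluster 0. NFE2L3, a CNC-family transcription factor, had 193 to 514 CPM against 118 CPM in other E23 CTB cells and 108 CPM in cluster 12. ACSS1, the mitochondrial acetyl-CoA synthetase, had 54.1 to 111 CPM against 10.8 CPM and 42.5 CPM in the same 2 groups. In E20 these 3 genes ran the other way, with 24.6, 34.8 and 18.8 CPM in cluster 14 against 40.6, 104 and 41.2 CPM in other CTB cells.

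LUZP4, CA6 (a secreted carbonic anhydrase) and TLR3 (a sensor of double-stranded RNA) had 17.7, 13.1 and 14.7 CPM in cluster 14 and 4.20, 2.16 and 2.55 CPM in other CTB cells. Within E23, TLR3 had 15.4 CPM in cluster 14 and 15.3 CPM in other CTB cells, so the pooled difference was not seen there.

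Further genes had E23 libraries that stood clear of all other CTB groups, and those named here are examples. CDO1, the dioxygenase that breaks down cysteine, had 150 to 239 CPM (median 221) in the E23 libraries against 91.8 CPM in other E23 CTB cells, 47.6 CPM in cluster 12 and at most 119 CPM in cluster 0, in E23. PLD3, a lysosomal exonuclease of the phospholipase D family, had 435 to 670 CPM against 332 CPM in other E23 CTB cells and 125 CPM in cluster 12. HMGN3, a nucleosome-binding protein, had 660 to 775 CPM against 200 CPM in other E23 CTB cells and 328 CPM in cluster 12. In E20, HMGN3 had 466 CPM over 9 cells against 322 CPM in other CTB cells.

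FBN2, a microfibril protein, and RALGPS2, an exchange factor for Ral GTPases, had 149 and 157 CPM in cluster 14 of E23 against 24.3 and 84.6 CPM in other E23 CTB cells. RAB38, a GTPase of lysosome-related organelles, had 44.6 CPM in cluster 14 of E23 and 0.90 CPM in other E23 CTB cells. SLC2A8, H2AC7, MARCHF3 and RASL11A, of the same list, were between 10.6 and 23.2 CPM in cluster 14. For CDO1, PLD3, RALGPS2, NFE2L3 and GGH the highest cluster 0 value was that of E23 itself.

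The largest pooled folds, a list also drawn after the values were seen, belonged mostly to genes with no count in the E20 members. DLX2, a homeobox factor, had 21 CPM in cluster 14 and 0.094 CPM in other CTB cells, COL8A1, a short-chain collagen, had 25.1 and 0.59 CPM, and EMP1, an epithelial membrane protein, had 37.6 and 2.51 CPM. None of these had a count in a cluster 14 cell of E20. ID1, an inhibitor of basic helix-loop-helix factors and a target of BMP signalling, had 203 to 381 CPM in the E23 libraries and 1.45 CPM in cluster 14 of E20, against 102 CPM in other E23 CTB cells and 36.7 CPM in other E20 CTB cells.

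Others of that list were high in all CTB cells of E23 or in another class. TSTD1 had 72.1 CPM in cluster 14 and 80.1 CPM in other CTB cells of E23. TRIM55, a muscle RING-finger protein, had 4.46 to 67.3 CPM in the E23 libraries, 10.8 CPM in other E23 CTB cells and 281 CPM in STB cells. XAGE5 had 67.7 CPM in library 8 and at most 2.88 CPM in the others, so 1 library decides its pooled value, whose log2 fold is 3.77 with library 8 and 0.47 without it. AHSP, CLEC4D, FAM9B, JPH1 and PDK4 complete the list.

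**Figure D4:**
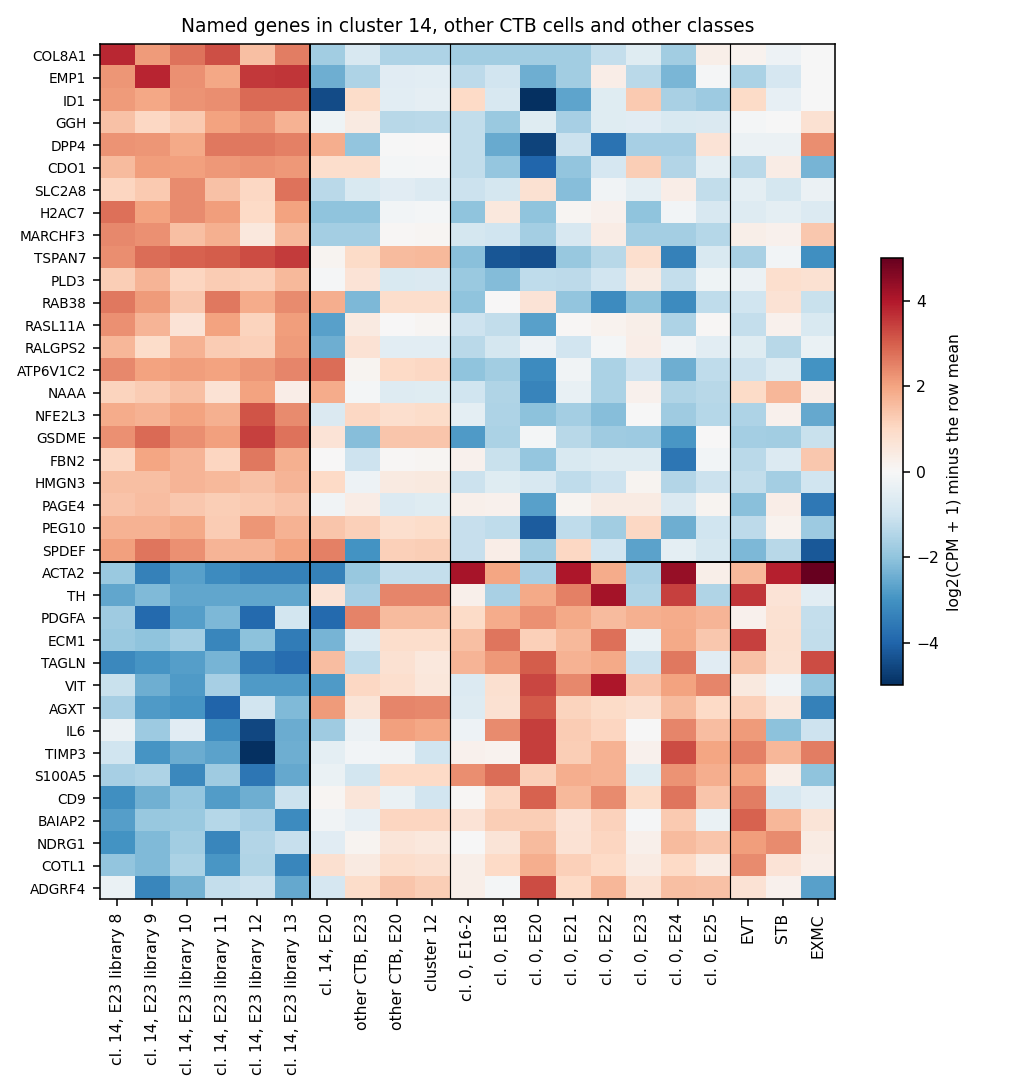
Heatmap of log2(CPM + 1) minus the mean of its row, for named genes with a count in cluster 14 (rows) in cluster 14 by library of E23 and pooled for E20, other CTB cells of E23 and E20, cluster 12, cluster 0 by embryo, and EVT, STB and EXMC (columns). The 6 E23 columns of cluster 14 share one pattern, and the E20 column of cluster 14 shares it in some rows, SPDEF, ATP6V1C2 and DPP4 among them.

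Of the 434 genes lower in cluster 14 within both embryos, those named here are examples by the size of the fold or by lack of overlap. PDGFA, a growth factor that acts on mesenchyme, had 0 to 6.84 CPM in the E23 libraries and no count in E20, against 81.9 CPM in other E23 CTB cells and 43 CPM in other E20 CTB cells. IL6, a cytokine, had 0 to 18.1 CPM in the E23 libraries and 5.79 CPM in E20, against 18 and 95 CPM in other CTB cells. ECM1, a secreted matrix protein, had 8.55 to 32.5 CPM in the E23 libraries and 20.3 CPM in E20, against 66.6 and 200 CPM. All 6 E23 libraries were below cluster 12 and below cluster 0 of all 8 embryos for these 3 genes, and ECM1 was highest in EVT, at 1151 CPM.

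CST6, a cysteine protease inhibitor, had 0 to 18.3 CPM in the E23 libraries against 169 CPM in other E23 CTB cells, and cluster 0 ran up to 642 CPM in E24. Its level in cluster 12 was 6.46 CPM, so the low value was not particular to cluster 14. VIT, S100A5 and ANKRD53 were at 1.02, 3.49 and 0.77 CPM in cluster 14, against 20.6, 39.2 and 15.8 CPM in other CTB cells.

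Several further genes lay below all other CTB groups in the E23 libraries but not in E20. CD9, a tetraspanin, had 13 to 54.7 CPM in the E23 libraries against 175 CPM in other E23 CTB cells and 119 to 894 CPM in cluster 0, while in E20 it had 125 CPM in cluster 14 and 90.3 CPM in other CTB cells. TAGLN, an actin-binding protein of smooth muscle, had 6.62 to 20.7 CPM against 43.2 CPM in other E23 CTB cells, while in E20 it had 310 CPM in cluster 14 and 179 CPM in other CTB cells. TIMP3, which inhibits metalloproteinases, had 0 to 24.1 CPM against 44.1 CPM in other E23 CTB cells. AGXT, an aminotransferase that clears glyoxylate, had 3.32 to 34.6 CPM against 108 CPM, and COTL1, an actin-binding protein, 27.1 to 95.5 CPM against 367 CPM. ACTA2, TH, BAIAP2 and ADGRF4 were under 3 CPM in pooled cluster 14, and ACTA2 was highest in EXMC, at 982 CPM.

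NDRG1, a gene induced by low oxygen and by differentiation of trophoblast, was lower in both embryos. It had 10.9 to 49.4 CPM in the E23 libraries against 122 CPM in other E23 CTB cells, and 75.3 CPM in E20 over 7 cells against 171 CPM in other E20 CTB cells. Cluster 0 ran from 111 to 337 CPM, so the groups did not overlap.

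Functional lists describe these differences by role. Over the 7237 genes with a mean level of at least 10 CPM, the median log2 fold of cluster 14 over other CTB cells, pooled, was -0.18. Of these genes 184 were 2-fold higher and 520 lower pooled, and 2.02% were higher and 5.64% lower within both embryos. The lists were chosen with earlier results of these data known, so their counts are a description. Within each embryo the median log2 fold over all these genes was 0.07 in E23 and -0.48 in E20.

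The V-ATPase list was near 0 when pooled and above the median of all genes within each embryo. Of 18 subunits at this level the median log2 fold was -0.04 pooled, 0.42 within E23 and -0.03 within E20, and 2 were 2-fold higher pooled, ATP6V1C2 and ATP6V1B1, which replaces the common B2 subunit in acid-secreting epithelia. ATP6V1B1 had 69.4 CPM in cluster 14 of E23 and 36 CPM in other E23 CTB cells, but 57.9 and 55.3 CPM in the same groups of E20. ATP6V0E2, of the membrane-bound part, was 2-fold higher within both embryos, at 12.4 CPM in cluster 14 of E23 and 3.60 CPM in other E23 CTB cells. CA12, a membrane carbonic anhydrase on the list of acid-base transport, had 108 CPM in cluster 14 and 53.7 CPM in other CTB cells, pooled. FOXI1, the factor of acid-secreting epithelia, had 0.41 CPM in cluster 14.

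Among ETS factors SPDEF stood alone. Of 7 factors at this level the median log2 fold was -0.92 pooled, -0.95 within E23 and 0.21 within E20, SPDEF was the one 2-fold higher, and ELF1, ELF3 and ETS2 were 2-fold lower pooled. ETS2, which drives trophoblast genes in mouse and human, had 1.19 to 9.16 CPM in the E23 libraries against 49.5 CPM in other E23 CTB cells. ELF3, an epithelial factor, had 37.4 CPM in cluster 14 and 87.6 CPM in other CTB cells. Among 13 tetraspanins TSPAN7 and TSPAN12 (82.6 CPM against 34.9 CPM pooled) were 2-fold higher, and CD9 and TSPAN14 lower. Of the GABA-A subunits GABRA3 and GABRQ reached this level, and GABRQ had 17.5 CPM in cluster 14 and 17.7 CPM in other CTB cells. Of the 3 genes of secretory epithelium at this level none was 2-fold different pooled, but XBP1, a factor of the secretory pathway, was 2-fold lower within both embryos. It had 15.7 CPM in cluster 14 of E23 and 4.34 CPM in that of E20, from 1 cell, against 51.3 and 16.6 CPM in the other CTB cells of E23 and E20. AGR2, a target of SPDEF in human and mouse goblet cells, had no count in CTB cells.

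Genes of the 3 trophoblast lineages differed as follows. Of 12 cytotrophoblast markers PAGE4 and PEG10 were 2-fold higher pooled and KRT19 lower, with 754 CPM in cluster 14 and 1714 CPM in other CTB cells. PEG10, an imprinted gene that the mouse placenta needs, had 141 to 271 CPM in the E23 libraries against 133 CPM in other E23 CTB cells and 109 CPM in cluster 12. VGLL1, a TEAD cofactor of human trophoblast, had 977 and 995 CPM, TP63, a factor of the stem state, 15.9 and 14.5 CPM, and GATA3 147 and 289 CPM in cluster 14 and other CTB cells. ITGA6 and EPCAM were 2-fold lower within both embryos.

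Of 5 STB markers at this level 3 were 2-fold lower pooled. GCM1, the factor that starts fusion, had 42.1 CPM in cluster 14 and 144 CPM in other CTB cells, OVOL1 had 30.6 and 110 CPM, and HSD3B1, a steroid enzyme, 148 and 329 CPM. GCM1 had 38.1 CPM in cluster 14 of E23 and 144 CPM in other E23 CTB cells, but 198 and 221 CPM in the same groups of E20. HOPX was 2-fold higher pooled, at 120 CPM in cluster 14 and 53.5 CPM in other CTB cells, but had 1.45 CPM in cluster 14 of E20. Of 9 EVT markers HPGD, HTRA4 and NOTUM were 2-fold higher pooled and ITGA1 and PLAC8 lower. HPGD, which breaks down prostaglandins, had 181 to 305 CPM in the E23 libraries against 61.2 CPM in other E23 CTB cells, whereas HTRA4 and NOTUM had 38.8 and 110 CPM in cluster 14 of E23 and more, 65.7 and 151 CPM, in the other CTB cells of that embryo.

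Genes of hypoxia and glycolysis were low when pooled. Of 9 at this level 6 were 2-fold lower (NDRG1, P4HA1, PGK1, BNIP3, EGLN3 and HK2) and the median log2 fold was -1.20. Within E23 the median was -0.30 and within E20 0.03, so the pooled median was not met within either embryo. BNIP3, a mitophagy receptor, had 358 CPM in cluster 14 and 1217 CPM in other CTB cells pooled, but 327 and 380 CPM within E23.

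Genes of cell division were near their level in other CTB cells. Of 12 proliferation genes RRM2 and UBE2C were 2-fold lower pooled, and MKI67 had 159 CPM in cluster 14 and 160 CPM in other CTB cells. Of 14 uptake genes those 2-fold lower included SLC6A6 and SLC16A1, a lactate carrier (95.8 CPM in cluster 14 against 346 CPM in other CTB cells). FOLR1, a folate receptor, had 104 CPM in cluster 14 and 53.3 CPM in other CTB cells. Of 12 epithelial integrins and laminins ITGA2 and COL17A1 were 2-fold lower pooled, and ITGA2, ITGA6, ITGB4 and ITGB5 were so within both embryos.

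Of 12 junction genes CLDN4 was 2-fold lower pooled, of 6 hormone and steroid genes HSD3B1, HSD17B2 and STARD3, of 16 trophoblast transcription factors GCM1 and OVOL1, and of 7 immediate early and heat shock genes FOS, FOSB and ATF3. The median log2 fold of the last list was -0.41 pooled, 0.93 within E23 and -0.49 within E20, so its direction turned within E23. FOS had 1348 CPM in cluster 14 of E23 and 588 CPM in other E23 CTB cells, and 2706 and 4167 CPM in the same groups of E20. TEAD4 and MSX2, factors of early trophoblast, had 53.7 and 90.6 CPM in cluster 14 and 45.5 and 73.1 CPM in other CTB cells. HES1, a NOTCH target, was 2-fold higher pooled, at 54.8 CPM against 13.6 CPM, but had 79.2 CPM in the other CTB cells of E23. Of 5 WNT genes NOTUM was higher and AXIN2 had 33.3 CPM in cluster 14 and 66.8 CPM in other CTB cells.

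As a whole profile the E23 cells were nearest to cluster 0 when cluster 0 was pooled over its embryos. Over 7237 genes, which are not independent, Pearson's r of log2(CPM + 1) with cluster 14 of E23 was 0.91 for cluster 0, 0.85 for cluster 12, 0.85 for Non-neural ectoderm, 0.84 for the other CTB cells of E23, 0.83 for EPI, 0.82 for EVT, 0.80 for STB and 0.72 for cluster 14 of E20. By embryo, cluster 0 gave r with cluster 14 of E23 from 0.71 (E20) to 0.89 (E25), with 0.84 for E22 and 0.84 for E23. Cluster 12 thus lay nearer than cluster 0 of E20, E22 or E23. Cluster 14 of E20 was nearest to the other CTB cells of E20, with r of 0.77. Pairs of E23 libraries of cluster 14 gave r of 0.81 to 0.93, and the part of cell number in r was not tested. These r share depth and are a description.

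The members of the 2 embryos were compared directly. The day label took no part in the rule that chose the cells. The clusters were nonetheless made from these genes and took 91.8% of the CTB cells of E23 and 6.67% of those of E20. The calls may thus be partly fixed by the choice of cells and are given as description. Libraries with at least 5 cells of the cluster were all from E23, so libraries with at least 3 cells were used, with 6 libraries of E23 and 3 of E20. Each group is 1 embryo and the p-values measure the spread between libraries. The edgeR quasi-likelihood test with Benjamini-Hochberg adjustment called 1858 of 9411 genes higher in E23 (19.7%) and 361 lower (3.84%), and the median log2 difference over all genes was 1.18 under TMM scaling and 0.80 under RLE scaling. With RLE the counts were 1383 higher and 610 lower, so the share of calls that were higher was 83.7% under TMM and 69.4% under RLE. Without single libraries the lower count ran from 188 (without library 10) to 666 (without library 36). The median log2 difference was -0.15 with DESeq2 and 2.03 with edgeR without a filter on low counts, so its sign depends on the method. Depth also differed, with a median of 180091 against 61017 counts per cell, and its part in these differences was not tested.

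The label genes divided. They name a cluster in which 112 of 125 cells are from E23, so a higher level in E23 may be partly fixed by that choice. Adjusted p-values for label genes higher in E23 are therefore not independent support. SPDEF averaged 222 ± 62.1 CPM in 6 E23 libraries and 356 ± 23.3 CPM in 3 E20 libraries (SD), a log2 difference of -0.40 ± 0.35 (SE, edgeR adjusted p 0.39). ATP6V1C2 averaged 63.2 ± 8.67 CPM in E23 and 150 ± 152 CPM in E20 (edgeR log2 difference -0.87 ± 0.67, adjusted p 0.32). Neither passed the edgeR test, which does not show that the embryos were alike. SPDEF passed as lower in E23 with DESeq2 (log2 difference -0.80, adjusted p 0.040), and ATP6V1C2 passed without E20 library 36 (edgeR log2 difference -1.38, adjusted p 0.031). TSPAN7 averaged 169 ± 46.2 CPM in E23 and 22.9 ± 20.3 CPM in E20 and was higher in E23, by 3.03 ± 0.73 on the log2 scale (SE, edgeR adjusted p 0.014). GABRA3 was at 31.1 ± 14.5 CPM in E23 and at 0 in the 3 E20 libraries (edgeR adjusted p 0.0099).

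Other named genes had higher means in E23. They stood out by their level in cluster 14, where 112 of 125 cells are from E23, so a higher level in E23 was partly fixed by that choice. Their adjusted p-values are given as description, not as support. ID1 averaged 286 ± 75.5 CPM in E23 and 2.62 ± 4.54 CPM in E20, a log2 difference of 7.52 ± 0.86 (SE, edgeR adjusted p 0.0003). NFE2L3 averaged 275 ± 123 CPM in E23 and 35.9 ± 31.2 CPM in E20 (edgeR log2 difference 3.10 ± 0.74, adjusted p 0.013). PAGE4 averaged 8802 ± 693 CPM in E23 and 3102 ± 1508 CPM in E20 (edgeR log2 difference 1.78 ± 0.23, adjusted p 0.001). PEG10, at 202 ± 42.3 CPM in E23 and 166 ± 45.9 CPM in E20, did not pass (edgeR adjusted p 0.32).

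The genes with the largest rises included AGK, MPP7, EXOSC9, CLCC1, H1-4, RRP15 and HLTF. They act in mitochondria, polarity, RNA decay, the endoplasmic reticulum, chromatin, ribosome assembly and DNA repair, and these 7 had no count in the 3 E20 libraries, so no fold is given. CLCC1 had 63.4 to 93.1 CPM in the E23 libraries and RRP15 59.2 to 104 CPM. The genes with the largest falls, CRYBA2, MYH14, PLAAT4, ZNF732, CCSER1, RNLS, GSTCD and HCLS1, had counts in 1 to 3 E20 cells each. CRYBA2 had 0 to 7.43 CPM in the E23 libraries against 248, 365 and 0 CPM in E20 libraries 34, 36 and 38. The 1 cell with a count of CCSER1 or RNLS decides each of those values.

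Whether E23 differed from E20 more in cluster 14 than in other CTB cells could be asked in 4 libraries with at least 3 cells of each kind, 1 of E23 and 3 of E20. With the library as a block, edgeR called 6 of 10092 genes higher (0.0595%) and 0 lower (0.0%), and 189 genes had an unadjusted p under 0.05. The 6 were FOS and the mitochondrial genes COX3, ND1, CYTB, ATP6 and COX2. The median log2 term over all genes was 3.62, so these 6 terms, between 0.88 and 2.84, lie below that median. DESeq2 called 0 genes, with 563 under an unadjusted p of 0.05. Without library 34, 36 or 38 edgeR called 2, 12 or 0 genes. In simulated data this fit recovered 0% of 200 genes with a log2 change of 3, so its count says little.

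The E23 embryo was then described in 2 other classes, EVT and EXMC, because the E23 libraries hold those cells too (146 EVT cells and 148 EXMC cells in 6 libraries each). This comparison was added after cluster 14 was seen to be mostly 1 embryo. With sums per embryo, where the embryo is the unit, edgeR called 0 of 13099 genes in EVT (0.0%; 376 at an unadjusted p under 0.05) and 0 of 14994 in EXMC (0.0%; 613 at an unadjusted p under 0.05). With libraries as the unit it called 70 higher and 140 lower of 10164 genes in EVT (0.689% and 1.38%) and 306 higher and 719 lower of 11220 in EXMC (2.73% and 6.41%). DESeq2 called 225 and 381 in EVT, and without library 8 edgeR called 46 higher. Those library fits count libraries of 1 embryo as independent, so their p-values are too small.

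Label genes of cluster 14 were also highest in the EVT cells of E23 when cells were pooled by embryo. The p-values of library fits count libraries of 1 embryo as independent, for genes named from a cluster mostly of E23. They are description and not support, here and for TRIM55 and IL6 below. With sums per embryo the log2 difference of SPDEF was 3.20 in EVT and 2.30 in EXMC, with E23 as 1 sample. SPDEF had 41.6 CPM in EVT of E23 and 0.76 to 9.83 CPM in the EVT of 4 other embryos (library fit by edgeR, log2 difference 3.16 ± 0.64 SE, adjusted p 0.009). TSPAN7 had 32.7 CPM in E23 and 0 to 5.15 CPM in the others (edgeR adjusted p 0.053, and 0.022 with DESeq2), ATP6V1C2 13.4 CPM and 0 to 8.19 CPM (edgeR adjusted p 0.53), and GABRA3 10.7 CPM and 0 to 1.5 CPM. The other embryo nearest to E23 was E20 for the first 3. By library, SPDEF had 27.1 to 61.3 CPM in EVT of E23 and up to 26.4 CPM in the other embryos. The remaining label genes overlapped by library. TSPAN7 had 2.70 to 57.9 CPM in E23 and up to 13.6 CPM in the others, ATP6V1C2 1.79 to 19.8 and up to 15.5 CPM, and GABRA3 0 to 19.7 and up to 5.24 CPM. In EXMC, SPDEF had 5.83 CPM in E23 and 0.33 to 2.15 CPM in 6 other embryos (library fit by edgeR, log2 difference 2.23 ± 0.66 SE, adjusted p 0.026). The edgeR adjusted p of SPDEF in EXMC was 0.095 without library 9 and 0.075 without library 10, so either of these E23 libraries decides that call. TSPAN7 was also highest in EXMC of E23, at 5.88 CPM against 0.18 to 1.95 CPM. ATP6V1C2 and GABRA3 were not, with 1.07 and 0.16 CPM in E23 and up to 2.08 and 0.20 CPM in another embryo.

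The order of the embryos was also counted over whole sets of genes. Of the 83 genes whose E23 libraries stood above all other CTB groups, E23 was the highest of 5 embryos in EVT for 62 (74.7%), beside 17.6% of all 7603 genes. In EXMC E23 was the highest of 7 embryos for 36 (43.4%), beside 19.1% of the 7603 genes. Of the 86 genes below all other CTB groups, E23 was the lowest in EVT for 47 (54.7%), beside 15.1%, and in EXMC for 36 (41.9%), beside 8.38%. Of the 171 genes 2-fold higher within both embryos the shares were closer to the background, 48 (28.1%) in EVT and 34 (19.9%) in EXMC. No filter on low values was used for these counts, and they carry no test. The libraries are the same, so shared RNA between their cells was not tested.

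Named genes showed this at several levels. HMGN3 had 294 CPM in EVT of E23 and 50.7 to 94.8 CPM in the others, and NFE2L3 69.9 CPM and 13.6 to 15.0 CPM. In EXMC neither was highest in E23, with 152 CPM of HMGN3 in E23 and 66 to 211 CPM in the others, and 8.88 CPM and 1.34 to 22 CPM of NFE2L3. CDO1 had 86.4 CPM in EVT of E23 and 0.61 to 21.2 CPM in the others, and ACSS1 28.2 CPM and 0 to 3.85 CPM, as well as 60.5 CPM and 1.87 to 22.8 CPM in EXMC. PAGE4, which is mostly a trophoblast gene, had 2976 CPM in EVT of E23 against 365 to 1331 CPM, and 791 CPM in EXMC of E23 against 45.2 to 519 CPM. All these lay below their cluster 14 level in E23.

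Other named genes were higher in another class of E23 than in its cluster 14. TRIM55 had 51.3 CPM in EVT of E23, against 0.14 to 1.60 CPM in the other embryos and above its 32.7 CPM in cluster 14 of E23 (library fit by edgeR, log2 difference 6.21 ± 0.84 SE, adjusted p 0.0002). DPP4 had 447 CPM in EXMC of E23, against 52.4 to 162 CPM in the other embryos and above its 130 CPM in cluster 14 of E23. PDK4 had 34.1 CPM in EXMC of E23, against 1.56 to 22.9 CPM in the other embryos and above its 14.2 CPM in cluster 14 of E23. ID1 was not highest in E23, with 116 CPM in EVT of E23 and 27.4 to 183 CPM in the others.

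Several low genes of the cluster were lowest in E23 among the EVT cells of 5 embryos. IL6 had 5.80 CPM in EVT of E23 and 29.8 to 134 CPM in the other embryos, TIMP3 37.4 CPM and 138 to 420 CPM, and NDRG1 149 CPM and 332 to 1023 CPM. The first of these gave a log2 difference of -4.63 ± 0.80 in the library fit (SE, edgeR adjusted p 0.003). In EXMC these 3 were not lowest in E23, where IL6 had 7.65 CPM against 0.78 to 19.6 CPM in the others, TIMP3 135 CPM against 125 to 637 CPM, and NDRG1 111 CPM against 46.5 to 314 CPM. COTL1 was lowest in E23 in neither class, with 557 CPM in EVT of E23 against 318 to 1828 CPM and 328 CPM in EXMC of E23 against 147 to 535 CPM. In EXMC, ACTA2, the smooth muscle actin, had 7.65 CPM in E23 and 199 to 3356 CPM in 6 other embryos, and TAGLN had 125 CPM and 408 to 2425 CPM.

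**Figure D5:**
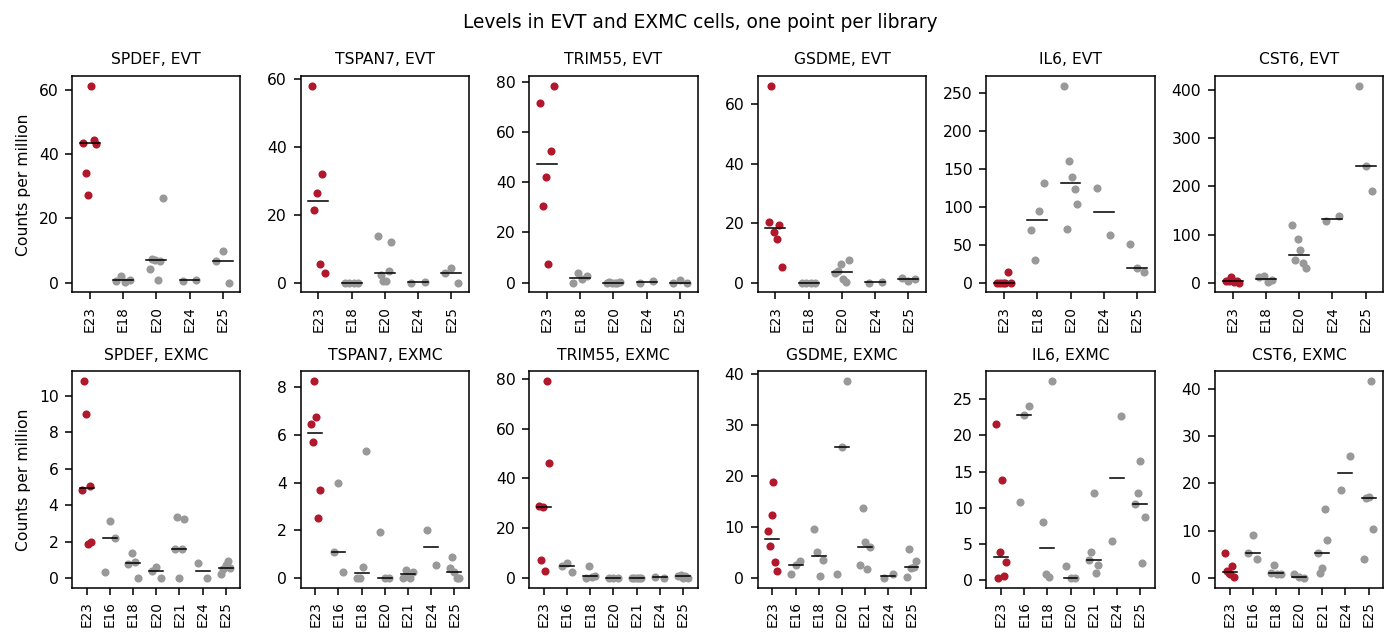
CPM (vertical axis) of named genes in EVT and in EXMC, by embryo from E23 (leftmost) to the others (horizontal axis); points are libraries with at least 10 cells of the class and bars are medians. In EVT, SPDEF had 41.6 CPM over the E23 cells and at most 9.83 CPM in another embryo.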

How the data were processed

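The series holds RNA of single cells in 44 libraries. The tools named in the submitters' processing notes are cutadapt 1.15 (trimming), STAR 2.6.0a (alignment) and HTSeq 0.10.0 (counting). The deposited table holds raw counts of 21834 genes (16240 with a symbol) in 3682 cells, not normalized, and the counts of each cell sum to the total in the authors' deposited annotation. Not given in the sources used here are the build of the genome, the treatment of doublets, and whether counts are of molecules or of reads. No pair of cells had equal counts. Class, cluster, embryo and sex come from the authors' annotation. Libraries 26 and 27 (149 cells, none in cluster 14) carry conflicting day labels and entered no test. Their 29 CTB cells stayed in the pooled other CTB cells and, by the authors' annotation, in the shares and cluster 0 levels of E21 and E24, and leaving them out was an alternative.

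Counts were pooled or summed per library and divided by the total (CPM), with 1 CPM added for folds. Python 3.11.15, numpy 2.4.6, pandas 2.3.3, scipy 1.17.1 and R 4.3.3 were used. Tests were edgeR 4.0.16 quasi-likelihood F tests (filterByExpr, TMM), with adjusted p under 0.05 as the threshold, and DESeq2 1.42.0 as an alternative. The planned minimum of 5 cells per library left 6 libraries of 1 day, so 3 cells were used. For EVT and EXMC the minimum was 10 cells. Replicates are libraries, mostly of 1 embryo, so p-values may measure technical spread. In simulated data with 200 genes changed by a log2 of 3, edgeR recovered 68% between E23 and E20 in cluster 14 (9443 genes), 98.5% in EVT (10001 genes) and 100% in EXMC (11304 genes). The changed genes were drawn from those of higher mean level. All genes were given the median spread and no embryo effect, so these rates do not hold for genes with few counts. No replicate numbers are shared between groups.

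Named genes were the label genes, the 12 highest and 8 lowest by pooled fold among those 2-fold within both embryos, the 8 highest over all classes, list members with the largest fold, and the 8 largest changes in each direction per test. Genes named for no overlap, for pooled fold, and those named beside them as examples were chosen after their values were seen. The members and lists were chosen with earlier results of these data known.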

Additional observations from a re-analysis of the deposited data

Results flagged for a closer look

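Among 56 named genes checked over the 6 E23 libraries of cluster 14, 9 had 1 library far above the other 5. The rate of about 1 in 20 by chance holds only for normally spread values, which was not tested here. Several of these genes are near the floor, so no excess over chance is read from the count. GABRA3 reached 58.5 CPM and NFE2L3 514 CPM in library 12, which holds 5 cells. XAGE5 reached 67.7 CPM and RRP15 104 CPM in library 8, ANKRD53 2.53 CPM, PDK4 34.6 CPM and CRYBA2 7.43 CPM in library 11, MYH14 5.41 CPM in library 9, and GSTCD 8.06 CPM in library 10.

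For 9 genes all E23 libraries lay on one side of the other CTB cells of E23 and all 3 E20 libraries on the opposite side of the other CTB cells of E20. This difference was not tested. The log2 folds of cluster 14 over other CTB cells, in E23 and then in E20, were 2.03 and -1.46 for TSPAN7, 0.97 and -4.79 for GABRA3, 1.01 and -1.55 for NFE2L3, 1.43 and -3.95 for ID1, 4.41 and -1.91 for EMP1, 3.86 and -0.19 for COL8A1, and 4.02 and -0.058 for FAM9B. GABRA3, EMP1, COL8A1 and FAM9B have no count in cluster 14 of E20. NAAA (1.14 and 2.50) and KIF21A (1.01 and 1.41) have the same sign in both when pooled, because the pooled E20 cells include the single cell of library 35.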

How the results depend on the processing

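The count of genes higher within both embryos (171) was 194 under TMM scaling, 117 with 5 CPM added, 391 at 1.5-fold, 397 with cluster 0 alone as the other CTB cells, 92 with a count in at least 3 E20 cells, and 166 to 189 without single libraries; the lower count (434) was 387, 308 and 894 under the first 3 and 423 to 484 without single libraries. Of E23 minus E20 in cluster 14, the lower count (361) was 610 with RLE, 845 with DESeq2 and 188 to 666 without single libraries (188 without library 10 and 666 without library 36; it moved by over 1.5 times without each of libraries 8, 9, 10, 11 and 13 and each of the 3 E20 libraries), and the higher count 1435 to 2374. Without single libraries the log2 difference ran from -5.84 to 5.95 (without library 36) for CCSER1, from -5.86 to 5.73 (without library 38) for RNLS, from -5.47 to 6.24 (without library 38) for HCLS1, and in the joint fit from -0.053 (without library 34) to 1.61 for COX2; those libraries hold most of these counts for the first 3, and for COX2 the cause was not tested.

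The 6 genes of the joint fit became 1 with RLE, 0 with DESeq2, 0 with no replicate block (1322 at an unadjusted p under 0.05) and 0 to 12 without single libraries (2, 12 and 0 without libraries 34, 36 and 38). No paired analysis was possible because the embryos share no library numbers; the block is the library itself. In EVT the 70 higher and 140 lower genes became 225 and 381 with DESeq2, 588 and 266 without a filter, 0 and 0 with sums per embryo, and 46 to 66 and 97 to 168 without single E23 libraries (46 without library 8). In EXMC the 306 higher and 719 lower genes became 467 higher with DESeq2, 576 higher without a filter, 0 and 0 with sums per embryo, and 223 to 275 and 527 to 565 without single libraries. For these counts the cause was not tested. Among single genes 1161 values kept their direction and side of the threshold, 51 no longer passed, 6 newly passed, 39 moved and 4 turned.

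The alternatives of at least 5 or 10 cells, sums per embryo, an embryo block, the name code as a term and leaving out a day could not be fitted for cluster 14. Cluster 0 alone, the E20 cell minimum, the library left-outs of the level counts, the non-overlap counts without libraries 26 and 27 and all EVT and EXMC fits were chosen after seeing the data. Depth limits the E20 side, at 690582 counts in 11 cells, and the other CTB cells of E23, at 1110928 counts in 10 cells.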

Other observations

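Of the 125 cells, 37 are paired with a DNA library in the deposited pairing table, 33 of them from E23; the DNA data were not used. The single cluster 14 cells of E18 and E25 had 191723 and 420632 counts, and SPDEF in both, at 115 and 212 CPM. TSPAN7 had 200 CPM in the E25 cell and 0 CPM in the E18 cell. GABRA3 had 46.9 CPM in the E18 cell and 64.2 CPM in the E25 cell.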
